A study of Mus musculus with 15 samples.

Results

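The clustered protocadherins are cell surface proteins of the cadherin superfamily that are encoded side by side in the alpha, beta and gamma clusters. Members were taken by gene symbol from the deposited expression table: a row belonged to the family when its name was Pcdha, Pcdhb, Pcdhga, Pcdhgb, Pcdhac or Pcdhgc followed by a number. The rule found 25 of 28876 listed genes, with 2 rows in the alpha cluster, 21 in the beta cluster and 2 in the gamma cluster. It was made by sequencing RNA from parts of the mouse embryo's aorta-gonad-mesonephros (AGM) region, where hematopoietic stem cells form, to ask how these parts differ in stage and position. Tissue came from C57BL/6 embryos at E9.5 and E10.5, with no treatment or altered allele named. The groups were the dorsal part of the AGM (E9 AoD and E10 AoD), the ventral part (E9 AoV and E10 AoV), and, at the later stage, the urogenital ridges (E10 UGR). Each group had 3 libraries. Every library was a pool of tissue from between 15 and 34 embryos, collected in separate experiments.

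In the alpha and gamma clusters, each variable first exon has a promoter of its own and is spliced to constant exons that all members of the cluster share. Beta genes are instead mostly single exons without a shared constant part. The proteins bind copies of themselves on neighbouring cells, and the family is best known in neurons, where individual cells choose different sets of members and so tell their own branches from those of other cells. The choice of promoter involves the insulator protein CTCF, cohesin and DNA methylation. Other tissues express the family as well, in general at lower levels.

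The rows do not stand for the same thing in the 3 clusters. In the GENCODE annotation of NCBIM37 (mm9), the build of the authors' alignment, 23 of the 25 identifiers were found, all on the plus strand of chromosome 18. The row named Pcdha11 (ENSMUSG00000007440) spanned 37089939 to 37347311, with 10 transcripts and 24688 exon bases. In that annotation it thus covers many alpha variable exons rather than 1. The identifier of the row named Pcdhga11 (ENSMUSG00000023036) carries the name Pcdhgc5 in that annotation and spanned 37833989 to 38001527, with 10 transcripts and 28980 exon bases. The identifiers of Pcdha6 and Pcdhga2 were not among those matched. The authors counted over an older Ensembl gene set, in which the alpha and gamma identifiers may cover other transcripts. No row was named for a C-type member (the Pcdhac and Pcdhgc genes). The alpha and gamma rows are therefore read here as measures of their loci, not of a single isoform. Beta rows lay between 37424652 and 37681073, and 20 of the 21 had a single exon, with 2350 to 7131 exon bases each.

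Reads of similar copies can be divided between rows. The authors' counting shared ambiguous reads in proportion to unique ones. As a description of this limit, windows of 50 bases, the length of a read, were taken from each row. They were looked for on both strands of the region around the clusters, and in protein-coding transcripts of other genes. Of the windows of a beta row, a median of 3.84% occurred elsewhere in these sequences, from 0% in Pcdhb1 to 12% in Pcdhb12. Pcdhb11 followed at 11.7%. Values below 1 read, which the division can give, occurred in 4 libraries for Pcdhb12 and in 1 for Pcdhb13. Sums over a cluster do not depend on how reads are divided between the rows summed, so they are given first. The beta sum leaves out AC020967.1, a row in the cluster but outside the naming rule. Reads divided between it and beta rows such as Pcdhb17 and Pcdhb19, with which it shares windows, can still change that sum.

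Values are RPM, the reads of a gene scaled to the library's total, in tissue that holds many cell types, so that fewer cells of a type and less RNA per cell cannot be told apart. A gene was tested when at least 1 library reached 0.5 RPM, which 18553 genes did, and changes are on the log2(RPM + 0.1) scale. Calls needed a fold change of at least 2 and a limma p below 0.05 after Benjamini-Hochberg adjustment over all tested genes. Counts of genes that passed on p alone are given without the share over all tested genes. They are therefore not read as a result about the members. Depth, worked out from the RPM of 1 read, was 33.8 to 48.5 megareads per library, and 3 reads were worth 0.0618 to 0.0888 RPM. Correlations between libraries of a group were 0.993 to 0.997, and no library was a copy of another. Of the members, 21 were tested (2 alpha, 17 beta, 2 gamma), and Pcdhb1, Pcdhb10, Pcdhb12 and Pcdhb13 were not. Among the 17 tested beta members 7 reached 0.5 RPM at both stages and 10 only at E10.5, so that the filter itself favoured members that were higher at E10.5. Of these 10, Pcdhb11 and Pcdhb15 reached it in E10 AoV only, which favoured E10 AoV in the same way.

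The beta cluster was the part of the family that varied most between the groups, from a summed 4.78 ± 0.925 RPM in E9 AoD to 27.4 ± 1.13 RPM in E10 AoV (SD, n = 3). Its libraries stood at 4.58, 5.78 and 3.97 RPM in E9 AoD and at 7.18, 9.02 and 8.48 RPM in E9 AoV. At E10.5 they stood at 17.9, 19.0 and 17.7 RPM in E10 AoD, at 26.7, 28.7 and 26.8 RPM in E10 AoV, with E10 UGR at 17.6, 18.5 and 17.6 RPM. Every E10.5 library lay above every E9.5 library, and E10 AoV lay above all other groups. E10 AoD and E10 UGR overlapped. The order of the group means was thus E9 AoD, E9 AoV, E10 UGR, E10 AoD and E10 AoV, of which only E10 UGR and E10 AoD did not separate beyond their spread. The sum was 3.33 times as high in E10 AoV as in E9 AoV and 3.82 times as high in E10 AoD as in E9 AoD.

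The gamma cluster carried most of the family's reads and varied little. Its sum was 282 ± 27.7 RPM in E9 AoD, 281 ± 8.39 RPM in E9 AoV, 394 ± 32.2 RPM in E10 AoD, and 343 ± 22.2 and 333 ± 24.7 RPM in E10 AoV and E10 UGR (SD, n = 3). The E9.5 groups overlapped each other, and E10 AoV overlapped E10 UGR. The E10.5 libraries of the aorta, at 318 RPM or more, all lay above the highest E9.5 library, at 314 RPM. Its share of the family's reads went from 97.8% in E9 AoD to 92.0% in E10 AoV, and the gamma reads per beta read from 59.2 to 12.5.

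The alpha cluster followed neither of the others. Its libraries held a summed 1.57, 1.72 and 1.53 RPM in E9 AoD and 3.65, 3.73 and 2.63 RPM in E9 AoV. At E10.5 they held 4.04, 3.89 and 3.0 RPM in E10 AoD and 2.38, 2.89 and 2.26 RPM in E10 AoV, with 1.57, 1.96 and 1.58 RPM in E10 UGR. E9 AoD and E10 UGR were thus the low groups and overlapped, and E9 AoV and E10 AoD were the high ones and overlapped as well. E10 AoV lay between them, overlapping E9 AoV.

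**Figure D1:**
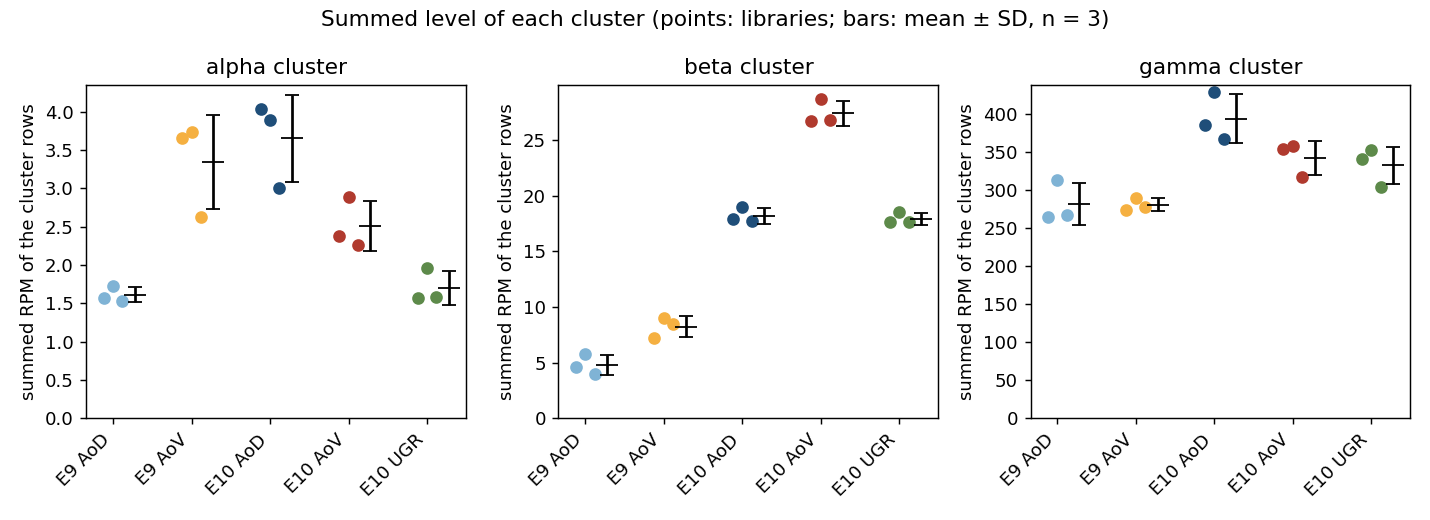
Summed RPM (linear axes from 0, a scale of its own for each cluster) of the alpha, beta and gamma rows in the 5 groups, with a point per library and bars for the mean ± SD (n = 3). The beta sum runs from 4.78 RPM in E9 AoD to 27.4 RPM in E10 AoV, the gamma sum stays between 281 and 394 RPM, and the alpha sum is highest in E9 AoV and E10 AoD.

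Setting E10 AoV against E9 AoV asks how the ventral tissue changes as it gains the capacity to support stem cells. All 21 beta members had a higher mean in E10 AoV than in E9 AoV, and in 20 of them the ranges of the 2 groups were apart. Pcdhb1, the exception, was listed at 0 in all 3 E9 AoV libraries and at 0.0259, 0 and 0 RPM in E10 AoV. All 17 tested beta members rose, by 1.25 to 1.99 on the log2 scale with a median of 1.46. Because 10 of the 17 passed the filter only at E10.5, this count and median are tilted toward a rise. For all tested genes the median was 0.00, 6.04% were called higher and 4.99% lower, and 27.7% lay higher without overlap of their ranges.

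Pcdhb17 and Pcdhb22 had the highest levels per exon length of the beta members, 0.750 and 0.762 RPM per kb over the 15 libraries. Pcdhb17 (chromosome 18, 37644675 to 37647943, 1 exon) was at 1.09, 1.65 and 1.45 RPM in E9 AoV and at 3.90, 4.75 and 4.35 RPM in E10 AoV. The lowest E10 AoV library was thus well above the highest E9 AoV library (log2 fold change 1.58, SE 0.167, adjusted p = 2.38e-06). Pcdhb22 (37678007 to 37681073, 1 exon), the last gene of the cluster, was at 1.35, 1.58 and 1.30 RPM in E9 AoV and 3.76, 3.37 and 4.0 RPM in E10 AoV. It rose by 1.34 (adjusted p = 1.05e-05), a ratio of means of 2.63, the lowest of the tested beta members.

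The fitted rises were largest in Pcdhb6, Pcdhb5 and Pcdhb16. Pcdhb5 was at 0.295, 0.404 and 0.474 RPM in E9 AoV and at 1.72, 1.70 and 1.69 RPM in E10 AoV (log2 fold change 1.89, SE 0.291, adjusted p = 9.15e-05). Its E10 AoV libraries were close together, and the E9 AoV libraries varied more. Pcdhb16 went from 0.302, 0.380 and 0.535 RPM to 1.86, 1.86 and 1.47 RPM (1.87, adjusted p = 0.000159). Pcdhb6 was low at E9.5, at 0.105, 0.0519 and 0.0995 RPM in E9 AoV, where 3 reads were worth 0.0684 to 0.0714 RPM. It reached 0.440, 0.579 and 0.971 RPM in E10 AoV (1.99, SE 0.319, adjusted p = 0.000129), so that its first place among the members depends on the pseudocount.

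Pcdhb7, which shares most of its repeated windows with Pcdhb9, rose from 0.461 ± 0.107 to 1.78 ± 0.146 RPM (SD, n = 3; log2 fold change 1.76, adjusted p = 1.72e-06). Pcdhb19, the beta row with the most exon bases, rose from 0.878 ± 0.192 to 2.93 ± 0.484 RPM (1.64, adjusted p = 2.89e-06). Pcdhb3 rose from 0.619 ± 0.185 to 1.72 ± 0.347 RPM (1.35, adjusted p = 0.00073). The highest adjusted p among the tested beta members was 0.00707, for Pcdhb11.

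The pseudocount decides how many of these low genes pass the fold threshold. With 1 RPM in its place, 2 members were called, Pcdhb17 and Pcdhb19, while all 17 tested beta members still had an adjusted p below 0.05. The ratios of mean RPM, which use no pseudocount, were 2.63 to 7.76 with a median of 3.34.

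Neither alpha row was called in the ventral comparison. Pcdha11 was at 2.77, 3.08 and 2.21 RPM in E9 AoV and at 1.87, 2.31 and 1.80 RPM in E10 AoV, with overlapping ranges (-0.41, SE 0.154, adjusted p = 0.0417, below the fold threshold). Pcdha6 was at 0.879, 0.650 and 0.425 RPM and at 0.514, 0.576 and 0.461 RPM (-0.24, adjusted p = 0.392, 95% interval -0.71 to 0.23). The gamma rows had small positive differences that passed the test without reaching the fold threshold. Pcdhga11 was at 219, 239 and 230 RPM in E9 AoV and at 285, 291 and 258 RPM in E10 AoV (0.28, SE 0.0774, adjusted p = 0.00903). Pcdhga2 gave 0.33 (adjusted p = 0.01), and neither gamma row had overlapping ranges.

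**Figure D2:**
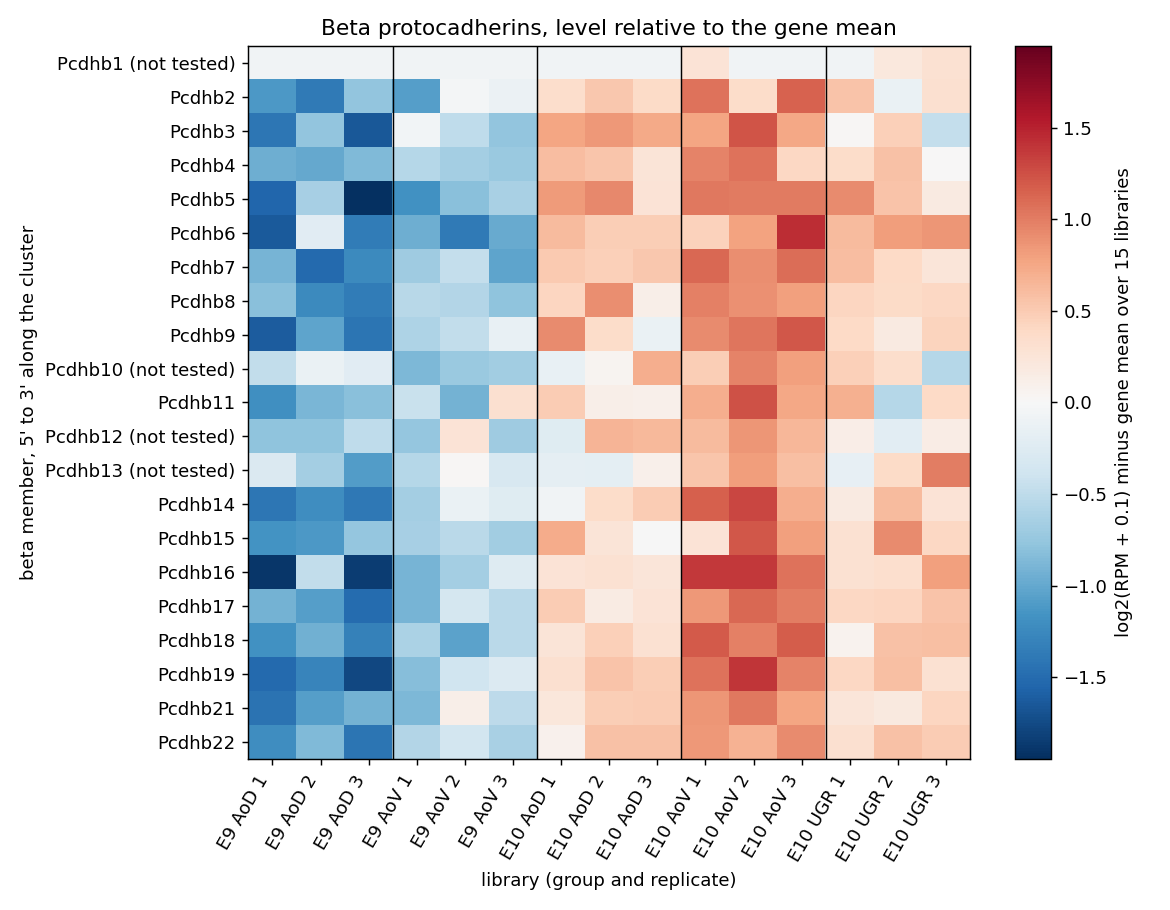
Level of each of the 21 beta members (rows, in order along the cluster) in the 15 libraries (columns, grouped by tissue and stage), as log2(RPM + 0.1) minus the gene's mean over all libraries, with red above and blue below that mean. The 6 libraries of E9.5 are mostly blue and the 9 of E10.5 mostly red, with the deepest red in E10 AoV, while Pcdhb1 stays near its mean throughout.

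The dorsal tissue gave the same comparison of stages. Of the 21 beta members, 20 had a higher mean in E10 AoD than in E9 AoD, and 19 had ranges that did not overlap. Pcdhb1 was listed at 0 in all 6 of these libraries. All 17 tested beta members rose, by 1.2 to 2.06 with a median of 1.60, and both alpha rows rose as well. The filter tilted the tested beta members toward a rise here too. The background was 8.6% of all tested genes called higher, 4.0% called lower and 31.3% higher without overlap, with a median change of 0.00.

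Pcdhb3, Pcdhb5 and Pcdhb19 had the largest fitted rises. Pcdhb3 was at 0.260, 0.461 and 0.204 RPM in E9 AoD and at 1.53, 1.62 and 1.49 RPM in E10 AoD (a fitted 2.06, SE 0.265, adjusted p = 1.07e-05). Pcdhb5 was at 0.207, 0.469 and 0.131 RPM and at 1.48, 1.60 and 0.975 RPM (2.05, adjusted p = 2.79e-05). In Pcdhb5 and Pcdhb16 the second E9 AoD library lay well above the other two. Pcdhb19 was at 0.375, 0.457 and 0.299 RPM and at 1.59, 1.90 and 1.80 RPM (1.98, SE 0.177, adjusted p = 2.84e-07), a ratio of means of 4.68.

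Pcdhb17 rose from 0.910 ± 0.198 to 2.66 ± 0.333 RPM (SD, n = 3; 1.47, adjusted p = 3.31e-06) and Pcdhb22 from 0.878 ± 0.194 to 2.80 ± 0.528 RPM (1.57, adjusted p = 1.37e-06). Ratios of mean RPM over the tested beta members were 2.93 to 7.80 with a median of 4.39. The highest ratio belonged to Pcdhb9, which was at 0.0281, 0.0915 and 0.0462 RPM in E9 AoD, near the level of 3 reads. With a pseudocount of 1 RPM, Pcdhb19 and Pcdhb22 stayed called, and all 17 kept an adjusted p below 0.05.

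Of the alpha rows, Pcdha11 was at 1.21, 1.45 and 1.24 RPM in E9 AoD and at 3.05, 3.01 and 2.35 RPM in E10 AoD (1.05, SE 0.154, adjusted p = 3.89e-05). Pcdha6 was at 0.360, 0.268 and 0.295 RPM and at 0.994, 0.883 and 0.654 RPM (1.2, SE 0.219, adjusted p = 0.000273). All E10 AoD libraries lay above all E9 AoD libraries in both rows. Both sat near the fold threshold: quantile normalization gave 0.87 for Pcdha11 and 0.99 for Pcdha6, and a pseudocount of 1 RPM 0.72 and 0.49. Without the first or the second E10 AoD library, Pcdha11 stood at 0.98 and 0.99. Among the gamma rows, Pcdhga11 went from 219, 264 and 227 RPM to 317, 355 and 305 RPM (0.46, adjusted p = 0.00013), and Pcdhga2 gave 0.58 (adjusted p = 0.000104), both below the fold threshold.

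**Figure D3:**
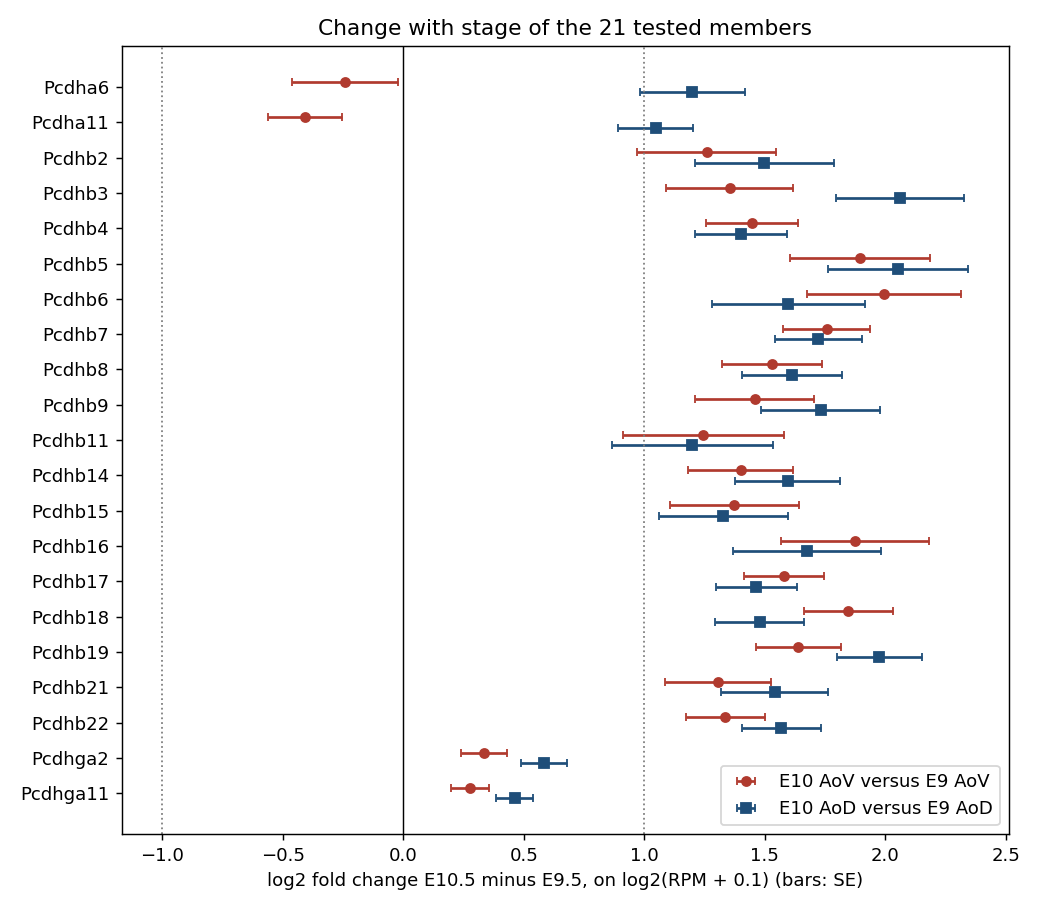
Log2 fold change from E9.5 to E10.5 on the log2(RPM + 0.1) scale (horizontal axis, bars are the SE) of the 21 tested members in the ventral tissue (red circles) and the dorsal tissue (blue squares), with dotted lines at the fold threshold. The 17 beta members lie between 1.2 and 2.06 in both tissues, the gamma rows between 0.28 and 0.58, and the alpha rows on opposite sides of 0.

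The stage effects of AoV and AoD were compared by an interaction term, the change in AoV minus that in AoD. Both alpha rows were called, with -1.46 for Pcdha11 (SE 0.217, adjusted p = 0.000149) and -1.44 for Pcdha6 (SE 0.309, adjusted p = 0.00261). The same call was made for 6.89% of all tested genes, and 4.12% were called in the positive direction. With a pseudocount of 1 RPM, Pcdha6 lost its call (-0.61, adjusted p = 0.00284). No tested beta or gamma member was called (limma), and none had an unadjusted p below 0.05. With the replicate block Pcdhga2 passed the test without reaching the fold threshold (-0.25, adjusted p = 0.016, against 0.199 without it). For Pcdhb17 the difference was 0.11 with a 95% interval from -0.39 to 0.62, for Pcdhb22 it was -0.23 (-0.73 to 0.26), and for Pcdhb19 it was -0.34 (-0.87 to 0.20). Over the 17 tested beta members the differences ran from -0.71 (Pcdhb3) to 0.40 (Pcdhb6).

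Mesenchyme markers followed the alpha rows only in part. Their list of 15 genes, among them Pdgfra, Pdgfrb and Col1a1, summed to 1000 to 1460 RPM in E9 AoD and 3760 to 3930 RPM in E9 AoV, and to 3070 to 3270 RPM in E10 AoD and 3000 to 3140 RPM in E10 AoV, with 1270 to 1510 RPM in E10 UGR. The low groups were thus E9 AoD and E10 UGR, as for the alpha sum and for the endothelial markers given below. In E9 AoV against E9 AoD, 10 of the 15 were called higher and none lower. Pdgfrb (87.1 against 99.4 RPM) and Twist1 (113 against 160 RPM) had lower means in E9 AoV. In E10 AoV against E10 AoD the alpha sum was 0.688 times as high. There the list had a median of -0.06, with 3 genes called lower and none higher. In the interaction 12 of the 15 were called negative and none positive. The list and the beta sum were both higher in E10 AoD than in E9 AoD, and both higher in E9 AoV than in E9 AoD. From E9 AoV to E10 AoV, where the beta sum was 3.33 times as high, the list was split, with 3 genes called higher, 2 called lower and a median of -0.33. Its largest rise was that of Myh11, the smooth muscle myosin heavy chain, from 2.34 ± 0.241 to 23.9 ± 4.05 RPM (SD, n = 3; 3.29, adjusted p = 1.15e-07), and its largest fall that of Lum, a matrix proteoglycan (-3.58, adjusted p = 2.68e-08). The part of these markers in the alpha and beta results was not tested.

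Setting E9 AoV against E9 AoD asks whether the family is polarized at the earlier stage. Over all 21 beta members, tested or not, 18 had a higher mean in E9 AoV. In 9 the ranges were apart in that direction and in 1, Pcdhb10, in the other. For the other direction the share over all tested genes is not given here. Pcdhb10 was at 0.0737, 0.122 and 0.108 RPM in E9 AoD and at 0.0325, 0.0464 and 0.0514 RPM in E9 AoV. Tested beta members had higher fitted values in E9 AoV in 16 of 17 cases, with a median of 0.62. An adjusted p below 0.05 was reached by 9 of them, with no share over all tested genes to set beside this count. The ranges did not overlap in 9. Only Pcdhb19 was called (1.03, SE 0.177, adjusted p = 0.000226), beside 8.32% of all tested genes called higher, 3.47% called lower and 28.7% higher without overlap (median change 0.02). Its call was lost with a pseudocount of 1 RPM (0.44), under quantile normalization (0.77), and without the third E9 AoD library (0.91), the second E9 AoV library (0.97) or the third E9 AoV library (0.92). Without the second E9 AoD library, 6 members were called: Pcdha11, Pcdhb3, Pcdhb9, Pcdhb14, Pcdhb16 and Pcdhb19. Without the first E9 AoV library 4 were called, and without the third 3.

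The alpha rows were also higher in E9 AoV, close to the fold threshold. Pcdha11 gave 0.98 (SE 0.154, adjusted p = 9.59e-05) and Pcdha6 0.84 (SE 0.219, adjusted p = 0.00526), and in both rows all E9 AoV libraries lay above all E9 AoD libraries. The gamma rows did not pass the test in the fit without a replicate block. Pcdhga11 had a difference of -0.04 (adjusted p = 0.691, 95% interval -0.21 to 0.12) and Pcdhga2 of 0.18 (adjusted p = 0.144, -0.03 to 0.38). Same-numbered libraries of E9 AoD and E9 AoV deviated together (correlations of 0.452, 0.347 and 0.19), and with the replicate number as a block the difference of Pcdhga2 passed the test (0.18, adjusted p = 0.00937, limma). It remained far below the fold threshold, at 46.4, 50.4 and 40.7 RPM in E9 AoD and 55.2, 51.4 and 48.5 RPM in E9 AoV, higher in E9 AoV for each of the 3 numbers. Pcdhb8 also passed with the block, which took the tested beta members with an adjusted p below 0.05 from 9 to 10.

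At E10.5 no member was called between E10 AoV and E10 AoD in either direction, where 5.81% of all tested genes were called higher and 4.29% lower. Of the 21 tested members, 12 had an unadjusted p below 0.05, and 10 an adjusted one. The share of all tested genes below these limits is not given here. Over all 21 beta members, tested or not, 21 had a higher mean in E10 AoV, and in 12 the ranges were apart. The filter admitted Pcdhb11 and Pcdhb15 through E10 AoV alone, which favours this direction. All 17 tested beta members had positive values, with a median of 0.48 against 0.02 over all genes. In 7 of them the adjusted p was below 0.05, and 11 lay higher without overlap, as did 27.9% of all tested genes. The largest was Pcdhb16, at 0.812, 0.832 and 0.794 RPM in E10 AoD and 1.86, 1.86 and 1.47 RPM in E10 AoV (0.996, SE 0.307, adjusted p = 0.0196). Its value sat just under the threshold and was called without the second E10 AoD or the third E10 AoV library.

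Pcdhb17 gave 0.68 (adjusted p = 0.00487), Pcdhb18 0.78 (adjusted p = 0.00384) and Pcdhb19 0.69 (adjusted p = 0.00647). The alpha rows lay on the other side. Pcdha11 was lower in E10 AoV by 0.47 (-0.47, adjusted p = 0.0268) and Pcdha6 gave -0.60 (adjusted p = 0.0449). For both, all E10 AoV libraries lay below all E10 AoD libraries. The share of all tested genes that lay lower without overlap is not given here. Of the gamma rows, Pcdhga11 gave -0.23 (adjusted p = 0.0329) and Pcdhga2 -0.07 (adjusted p = 0.605).

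The urogenital ridges lie beside the aorta and were taken at E10.5. No member was called between E10 AoV and E10 UGR (3.84% of all tested genes were called higher and 3.73% lower). Of the 21 tested members, 14 had an unadjusted p below 0.05 and 8 an adjusted one, again without the share over all tested genes. Over all 21 beta members, tested or not, 20 had a higher mean in E10 AoV, and in 15 the ranges were apart. The filter again admitted Pcdhb11 and Pcdhb15 through E10 AoV alone. The tested beta members were all positive, with a median of 0.61 against -0.05 over all genes. In 7 of them the adjusted p was below 0.05, and 13 lay higher without overlap, as did 18.8% of all tested genes. Pcdhb3 was the largest, at 0.873, 1.22 and 0.591 RPM in E10 UGR and 1.53, 2.12 and 1.51 RPM in E10 AoV (0.90, SE 0.265, adjusted p = 0.0182), and was called without the second E10 UGR library. Pcdha11 gave 0.68 (adjusted p = 0.00373).

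Between E10 AoD and E10 UGR, Pcdha11 alone was called. It was at 3.05, 3.01 and 2.35 RPM in E10 AoD and at 1.11, 1.37 and 1.14 RPM in E10 UGR, with no overlap (1.15, SE 0.154, adjusted p = 2.55e-05). With a pseudocount of 1 RPM it was no longer called (0.78). Of all tested genes, 4.76% were called higher, 6.56% lower, and 18.7% lay higher without overlap. The beta members gave a median of 0.05 against -0.05 over all genes, 10 of 17 of them positive. Pcdhb3 alone had an adjusted p below 0.05 (0.78, adjusted p = 0.0302), and it was called without the second E10 UGR library. For Pcdhb17 the difference was -0.15 with a 95% interval from -0.51 to 0.20, for Pcdhb22 -0.05 (-0.40 to 0.30) and for Pcdhb19 0.02 (-0.36 to 0.40). All 3 intervals lie inside the fold threshold.

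The share of the summed beta RPM held by a member varied more for some members than for others. Between the groups with the highest and the lowest mean share, the ratio was 1.17 to 3.0 over the 17 tested members (median 1.39), and it was above 1.5 in 7 of them and above 2 in 2. Going from E9 AoD and E9 AoV to E10 AoD, E10 AoV and E10 UGR, Pcdhb17 held 19.2%, 16.9%, 14.7%, 15.8% and 16.6%. Pcdhb22 held 18.3%, 17.2%, 15.3%, 13.6% and 16.1% in the same order, and Pcdhb19 7.88%, 10.6%, 9.67%, 10.7% and 9.73%. The largest ratios among tested members were those of Pcdhb6, which held 2.03%, 1.07%, 2.58%, 2.43% and 3.21%, and Pcdhb9, which held 1.12%, 2.41%, 2.37%, 2.62% and 2.21%. The differences in share between groups were not tested. At the other end, Pcdhb1, the first gene of the cluster, was listed at 0 in 12 of the 15 libraries and reached at most 0.0282 RPM, below the level of 3 reads in every library. These are levels at this depth and do not show that the gene is silent.

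Level per exon length did not follow a simple course along the cluster. In E10 AoV the median was 0.370 RPM per kb over the first 7 members, 0.127 over the middle 7 and 0.328 over the last 7. In E9 AoD the same medians were 0.0755, 0.0181 and 0.0512 RPM per kb. The middle 7 run from Pcdhb8 to Pcdhb14 and include Pcdhb11 and Pcdhb12, the rows with the highest shares of repeated windows. Spearman's rho between position and level over the 21 members was 0.0753 to 0.155 in the 5 groups, a description across genes of the same libraries.

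**Figure D4:**
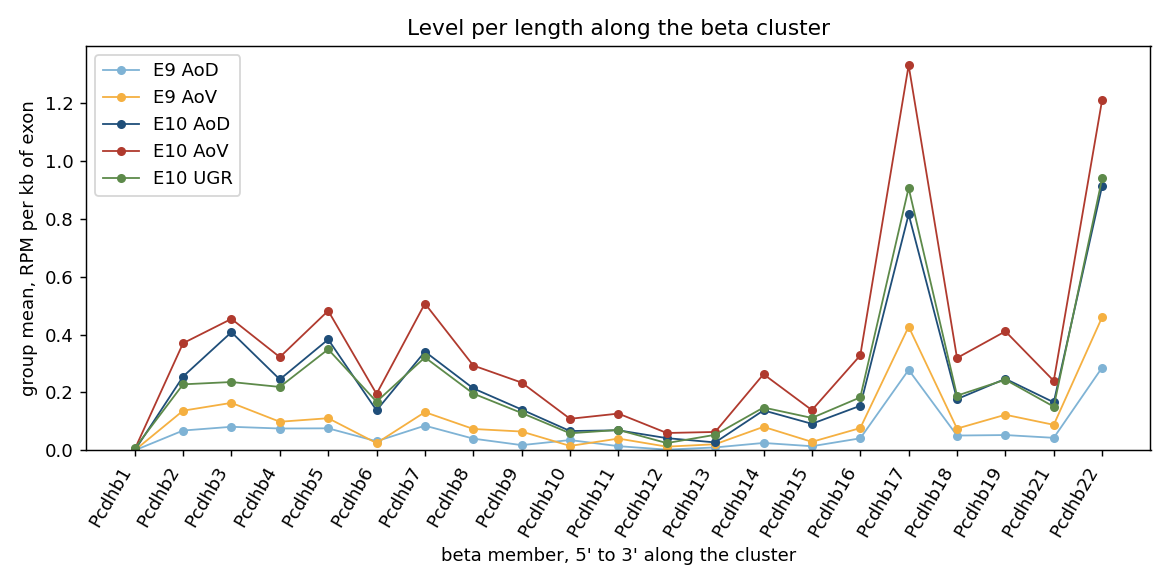
Group mean level in RPM per kb of exon (vertical axis, linear from 0) of the 21 beta members in their order along the cluster, with a line per group. Pcdhb17 and Pcdhb22 stand out in every group, the middle members are low, and the E10 AoV line lies highest, at 1.33 RPM per kb for Pcdhb17.

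Within the alpha and gamma clusters, the rows of each pair kept a narrower ratio than the clusters did. Pcdhga2 stood at 17.9% to 25.2% of Pcdhga11 over the 15 libraries. Pcdha6 stood at 18.5% to 42.8% of Pcdha11, with group values of 24.0%, 24.0%, 29.9%, 26.0% and 41% from E9 AoD to E10 UGR. The last of these is the highest. Mean Pcdha11 was 1.21 RPM in E10 UGR and nearly as low, at 1.3 RPM, in E9 AoD, where the ratio was 24.0%. Because each pair may share constant exons, the rows are not independent.

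Regulators of the clusters were measured well above the beta members and changed little. Their list holds 19 genes for CTCF, cohesin and its loaders and releasers, DNA methyltransferases and silencing factors, and none of the 19 was called in any comparison (limma). In the ventral comparison of stages 6 had an unadjusted p below 0.05 and 5 an adjusted one, with changes from -0.34 to 0.47. In the dorsal comparison these counts were 12 and 11, with changes from -0.50 to 0.47. Ctcf stood at 208 ± 9.71 RPM and 208 ± 1.53 RPM in the ventral tissue at E9.5 and E10.5 (SD, n = 3; 0.01, adjusted p = 0.932). Dnmt3b, a methyltransferase that acts on new sites, was at 45.6 ± 1.07 and 36.2 ± 1.34 RPM (-0.34, adjusted p = 3.44e-05), and Smchd1, a silencing factor, at 162 ± 20.3 and 149 ± 3.21 RPM (-0.11, adjusted p = 0.28).

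A list of 18 genes for protein partners and processing enzymes, such as the focal adhesion kinases and the Wave complex, held only Ptk2b and Ret among its called genes. Ptk2b, a kinase that binds alpha and gamma cytoplasmic parts, was called in 4 comparisons, the largest being E9 AoV over E9 AoD (2.11, adjusted p = 6.86e-07). Ret, a receptor kinase, was called lower in E10 AoV than in E10 AoD (-1.67, adjusted p = 6.2e-10). It was also lower than in E10 UGR (-1.14, adjusted p = 4.64e-08) and had a called interaction (-1.21, adjusted p = 1.37e-06).

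Nonclustered protocadherins, which lie at separate loci, varied gene by gene. Of 12 listed genes 11 were tested. With stage, 3 were called higher and none lower in the ventral tissue, and 5 higher and 2 lower in the dorsal tissue. Pcdh20 went from 0.878 ± 0.188 to 8.70 ± 0.681 RPM in the ventral tissue (SD, n = 3; 3.19, adjusted p = 7.77e-09), and Pcdh9 from 0.986 ± 0.377 to 4.47 ± 0.954 RPM in the dorsal tissue (2.12, adjusted p = 1.84e-06). Pcdh8 was called lower in E10 AoD than in E9 AoD (-2.46, adjusted p = 1.81e-06). Ventral over dorsal, 2 were called higher and 2 lower at E9.5, and 3 higher and 1 lower at E10.5. In the interaction 4 were called positive and 1 negative.

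Markers of other tissues differed between the same groups, and their part in the beta values was not tested. Neural tube and neuron markers (17 genes) summed to 452 to 638 RPM in E9 AoD and 115 to 123 RPM in E9 AoV, and to 557 to 687 RPM in E10 AoD and 356 to 447 RPM in E10 AoV, with 131 to 146 RPM in E10 UGR. Set beside the beta sum, both sums were higher in E10 AoV than in E9 AoV. The marker genes were split there, with 6 of 17 called higher, 5 called lower and a median of 0.03. Nefm went from a mean of 11.1 to 209 RPM and Nefl from 4.78 to 62.1 RPM. In E9 AoV the marker sum was lower and the beta sum higher than in E9 AoD. In E10 AoV against E10 AoD the markers were again lower and the beta sum higher, and in E10 AoD against E10 UGR the markers were higher with beta sums of 18.2 and 17.9 RPM. Neural crest and sympathetic markers (11 genes) summed to 153 to 163, 130 to 152, 500 to 573, 182 to 224 and 179 to 205 RPM in the same order. Urogenital ridge markers (11 genes) summed to 68.2 to 166, 174 to 183, 66.6 to 97.0, 721 to 755 and 877 to 949 RPM, with E10 AoV and E10 UGR far above the rest.

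Somite markers (11 genes) summed to 591 to 613 RPM in E9 AoD and 723 to 917 RPM in E10 AoD, and to at most 235 RPM elsewhere. Endothelial markers (10 genes) summed to 331 to 447 RPM in E9 AoD, 516 to 561 RPM in E10 UGR and 652 to 752 RPM in the other groups. Hematopoietic and erythroid markers (9 of 10 genes found) summed to 1110 to 5120 RPM with wide spread inside groups. Germ cell markers (8 of 9 genes found) summed to 83.4 to 104 RPM in the ventral groups and 31.5 to 44.4 RPM in the others, and gut and liver markers (10 genes) to 566 to 808 RPM in E9 AoV and at most 68.4 RPM elsewhere. No gene found for any of these lists was at 0 in all 3 libraries of a group.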

How the data were processed

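RNA was sequenced in 15 libraries, 3 for each of 5 groups, from pools of 15 to 34 embryos. Per the paper's methods, the authors extracted RNA on columns with DNase treatment, made libraries with a TruSeq kit, aligned single-end reads of 50 bases with TopHat and Bowtie (0.12.3 in the submitters' processing notes) to NCBIM37 (mm9), and counted reads over Ensembl genes with GeneProf, dividing ambiguous reads in proportion to unique ones. The deposited values are RPM. The table also holds 12 columns of the authors' own comparisons (log2 fold changes and p-values, deposited with the table and made with DESeq), which were not used. The use of strand in counting is not given in the sources used here, and antisense reads cannot be told apart.

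A filter kept the genes that reached 0.5 RPM in some library. For these, limma 3.58.1 (R 4.3.3) fitted a mean for each group to log2(RPM + 0.1) of the 15 libraries together, with empirical Bayes moderation, an intensity trend and Benjamini-Hochberg adjustment across the tested genes. The script was tested on simulated data, with changes placed only in genes of higher level than most beta members. That test therefore does not cover genes near the floor. Whole reads could not be recovered, since 63.5% to 75.2% of low values were whole multiples of 1 read within 0.02 reads. Exon lengths, positions and repeated windows came from GENCODE annotation and sequence of NCBIM37, not from the Ensembl gene set used for counting. Levels per exon length carry this limit.

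The members and gene lists were chosen with earlier results of these data known. Named members were the 4 highest and the lowest per exon length in each cluster and the 3 largest called changes in each direction, comparison and cluster. C-type members were to be named too but have no rows of their own. Other members are given where an alternative changed their call or as the largest value of a comparison, and these were chosen after their values were seen. The main fit had no replicate block. Of 30 pairs of same-numbered libraries, 11 had correlated deviations above 0.1 (-0.138 to 0.452). E9 AoD and E9 AoV were the only groups with all 3 pairs above it, so their numbers were taken as pairs, from the data and not from the labels, and blocked values are given where a test changed. Libraries of a group are separate pools, and p-values measure the spread between these pools. Comparisons share groups, so their results are not independent of each other. Alternatives were a pseudocount of 1 RPM, no filter, quantile normalization, no fold threshold, the replicate number as a block and leaving out each library.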

Additional observations from a re-analysis of the deposited data

Results flagged for a closer look

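The interaction of stage and position passed its test for both alpha rows, so that their change from E9.5 to E10.5 differed between the ventral and the dorsal tissue. It was -1.4552 for Pcdha11 and -1.4425 for Pcdha6 on the log2 scale. In the dorsal tissue Pcdha11 had a mean RPM 2.16 times as high at E10.5 as at E9.5, and in the ventral tissue 0.742 times. For Pcdha6 these ratios were 2.74 and 0.794. Both rows may hold reads of the same constant exons and are not 2 independent observations.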

How the results depend on the processing

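The counts of called members turned on the fold threshold and the pseudocount. With a pseudocount of 1 RPM they were 2 for stage in AoV and 2 in AoD (17 and 19 as reported), 0 for E9 AoV against E9 AoD, 0 for E10 AoD against E10 UGR and 1 for the interaction. Quantile normalization gave 0 for E9 AoV against E9 AoD. Without a fold threshold they were 11 for E9 AoV against E9 AoD and 10 for E10 AoV against E10 AoD (7 higher, 3 lower). They were 8 for E10 AoV against E10 UGR and 4 for E10 AoD against E10 UGR. The share of all tested genes called without a fold threshold is not given here. Leaving out 1 library gave 15 to 17 calls for stage in AoV and 17 to 19 in AoD. It gave 0 to 6 for E9 AoV against E9 AoD, 0 to 1 for E10 AoV against E10 AoD, 0 to 1 for E10 AoV against E10 UGR, 1 to 2 for E10 AoD against E10 UGR and 2 for the interaction. Without the second E10 AoV library, Pcdhb11 and Pcdhb15 fell below the filter and were not tested. With no filter, Pcdhb10 and Pcdhb12 joined the calls for stage in AoV (19) and Pcdhb12 those in AoD (20).

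A few small differences changed sign when 1 library was left out. Pcdha6 ran from -0.0133 to 0.1606 and Pcdhga11 from -0.0301 to 0.0793 between E10 AoV and E10 UGR, and Pcdhga11 from -0.0951 to 0.0397 between E9 AoV and E9 AoD. The ratio of summed RPM ran from 0.998 to 1.04 for beta between E10 AoD and E10 UGR, from 0.966 to 1.05 for gamma between E9 AoV and E9 AoD (1.01 under quantile normalization) and from 0.99 to 1.07 for gamma between E10 AoV and E10 UGR. Of the 35 named changes under all alternatives, 661 values kept direction and side of the threshold, 18 lost the call, 16 gained it and 5 changed sign. Many of the 661 could not change direction. The log2 fold change stays the same with no filter, with the block and without a fold threshold. It also stays the same when a library of a group outside the comparison is left out. The count is thus no measure of how stable the changes are. The gained calls include those made without a fold threshold, which follow from dropping it, since log2 fold change and adjusted p stay the same. The cause of the other changes was not tested. The fit with the replicate block changed no count of calls in any of the 7 comparisons (17 for stage in AoV, 19 in AoD). It moved some adjusted p across 0.05: Pcdhga2 came below it for E9 AoV against E9 AoD, for the interaction and for E10 AoD against E10 UGR (0.19, adjusted p = 0.00644, against 0.126), and Pcdhb9 went above it for E10 AoV against E10 AoD and against E10 UGR, where Pcdhb4 and Pcdhb21 came below it. Outside the 2 E9 groups the numbers are no established pairing, since the labels do not say that they mark pairs. Over all groups, the E9 groups included, a library correlated best with its own number in 35 of 60 comparisons with another group. This count is no evidence against shared effects of the number and was not tested. Several beta members lie near the level of 3 reads (0.0618 to 0.0888 RPM) at E9.5, and this depth limits how well the size of their folds is known.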

Other observations

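A row outside the naming rule, AC020967.1 (ENSMUSG00000046191, chromosome 18, 37663926 to 37667476, NCBIM37), lies between Pcdhb19 and Pcdhb21 and is annotated as the pseudogene Pcdhb20. It was looked up after the values of the family were seen. It was at 0.431, 0.589 and 0.330 RPM in E9 AoV and 1.33, 1.81 and 1.25 RPM in E10 AoV, higher by 1.52 on the log2 scale (SE 0.192, adjusted p = 1.4e-05 by limma). In the dorsal tissue it gave 1.83 (adjusted p = 1.37e-06). Of its 50-base windows, 5.56% occur elsewhere in the sequences searched, among them those of Pcdhb19 and Pcdhb17, so that part of its reads may belong to neighbouring beta rows.

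Genes between and beside the clusters were also chosen after the values were seen. Taf7, a subunit of the general transcription factor TFIID whose gene lies between the beta and gamma clusters, went from 43.0 ± 1.99 to 61.0 ± 4.51 RPM in the ventral tissue (SD, n = 3; log2 fold change 0.50, adjusted p = 2.27e-05). In the dorsal tissue it gave 0.51 (adjusted p = 1.39e-05), both below the fold threshold. Diap1, an actin regulator just beyond the gamma cluster, gave -0.30 (adjusted p = 9.88e-05) in the ventral and -0.24 (adjusted p = 0.000432) in the dorsal tissue. The predicted gene Gm6756, before the alpha cluster, gave -0.40 (adjusted p = 0.0137) and -0.14 (adjusted p = 0.332). 3222401L13Rik, between beta and gamma, gave 0.29 (adjusted p = 0.0868) and 0.66 (adjusted p = 0.000632). None of these neighbours was called at either position.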
